A study of Drosophila melanogaster with 3 samples.

Results

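The 10 genes described here carry the Dpp signal of the fly embryo: the ligands dpp and scw, the extracellular inhibitor sog, the receptors tkv, sax and put, the Smads Mad and Med, and the nuclear regulators shn and brk. They were chosen by their place in the pathway, out of 13945 protein-coding genes of the annotation, and all 10 names were found in it. Every peak summit within 500 bp of any transcription start site (TSS) of these genes, inside them, or within 10 kb of them was assigned to them, which gave 43 of the 5786 reproducible summits of the data set. The data came from chromatin immunoprecipitation followed by sequencing (ChIP-seq) with an antibody against green fluorescent protein (GFP), on whole Drosophila melanogaster embryos of 0 to 16 hours, males and females pooled. The flies were a stable transgenic line in which the zinc finger protein az2 has GFP joined to its C-terminal end. There was 1 group with 3 replicates, which the labels call biological without naming the separate collections, and no untagged embryos were compared here. Whole embryos mix all tissues and stages of these hours, so a peak seen in few cells and a weak peak seen in many cannot be told apart.

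Dpp is the main bone morphogenetic protein (BMP) of the fly, and its gradient from the dorsal midline sets dorsal cell fates in the early embryo and later patterns the imaginal discs. Dpp and its partner Scw bind a receptor complex of type I kinases (Tkv and Sax) and the type II kinase Put. The receptors phosphorylate Mad, which enters the nucleus with Med. There the Smads activate target genes or, together with Shn, silence brk, whose product is itself a repressor of Dpp targets.

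The reproducible peaks passed the authors' filter on the irreproducible discovery rate (IDR), which weighs whether peaks keep their ranks from replicate to replicate, and are called IDR peaks below. Each has a summit and a signal, a value of the authors' list by which peaks are ranked here, taken as linear, from 133 to 4202 with a median of 233. Rank 1 is the highest of the 5786. Each replicate also has a longer, relaxed list of 30000, 22372 and 30000 peaks for replicates 1, 2 and 3, on scales that differ, so a replicate's value is given as its relative signal: the signal of its peak at the summit divided by its median over all IDR summits. Those medians were 57.8, 97 and 86.6. Across all IDR summits 98.2% lay in a peak of all 3 relaxed lists, and 72.6% did so when each list was shortened to its 5786 highest peaks. Since read counts are not part of such lists, each replicate's depth is unknown here, and values carry no counting interval. With 1 group and genes chosen by name, no test was run, and counts of members stand beside the same counts over all genes.

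The DNA under 6 member summits is shown here as the 300 bp around the summit on the plus strand of dm6, 5′ to 3′. The 4 windows given before the others are the highest peaks that dpp, sog, Mad and the upstream DNA of brk had, and the last 2 are windows with 6 and 7 matches to the motifs searched. Capitals mark matches on either strand to short motifs described further on. All 6 lie outside annotated exons.
Mad, intron, 2L:3153253-3153552: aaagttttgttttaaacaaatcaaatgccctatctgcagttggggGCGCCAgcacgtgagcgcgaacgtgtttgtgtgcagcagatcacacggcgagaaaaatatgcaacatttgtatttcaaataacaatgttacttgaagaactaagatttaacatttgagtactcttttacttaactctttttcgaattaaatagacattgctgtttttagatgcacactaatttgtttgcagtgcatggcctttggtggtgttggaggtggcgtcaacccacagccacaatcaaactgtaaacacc
sog, intron, X:15619344-15619643: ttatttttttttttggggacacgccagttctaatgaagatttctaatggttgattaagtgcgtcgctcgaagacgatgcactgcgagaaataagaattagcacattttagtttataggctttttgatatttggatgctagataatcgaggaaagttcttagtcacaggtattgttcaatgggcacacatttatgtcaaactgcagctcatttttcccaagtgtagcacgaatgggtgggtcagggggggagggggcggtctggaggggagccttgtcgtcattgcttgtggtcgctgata
dpp, intron, 2L:2433500-2433799: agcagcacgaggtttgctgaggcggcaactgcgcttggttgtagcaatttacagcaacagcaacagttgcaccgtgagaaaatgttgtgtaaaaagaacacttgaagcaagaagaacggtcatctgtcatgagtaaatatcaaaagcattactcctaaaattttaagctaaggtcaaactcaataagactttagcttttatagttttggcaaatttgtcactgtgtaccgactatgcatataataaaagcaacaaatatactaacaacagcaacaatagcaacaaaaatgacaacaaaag
brk, upstream, X:7306968-7307267: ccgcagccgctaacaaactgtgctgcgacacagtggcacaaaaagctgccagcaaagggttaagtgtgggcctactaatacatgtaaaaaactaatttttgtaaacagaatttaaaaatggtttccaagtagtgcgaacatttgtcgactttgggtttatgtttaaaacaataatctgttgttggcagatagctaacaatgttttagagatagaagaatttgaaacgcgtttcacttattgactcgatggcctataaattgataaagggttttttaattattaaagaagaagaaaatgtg
sog, downstream flank, X:15594546-15594845: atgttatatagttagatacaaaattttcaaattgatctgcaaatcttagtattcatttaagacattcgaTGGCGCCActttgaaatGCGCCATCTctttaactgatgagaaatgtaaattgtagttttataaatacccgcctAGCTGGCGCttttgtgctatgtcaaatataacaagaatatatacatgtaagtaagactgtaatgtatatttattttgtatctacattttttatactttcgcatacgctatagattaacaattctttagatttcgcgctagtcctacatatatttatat
brk, far upstream, X:7300345-7300644: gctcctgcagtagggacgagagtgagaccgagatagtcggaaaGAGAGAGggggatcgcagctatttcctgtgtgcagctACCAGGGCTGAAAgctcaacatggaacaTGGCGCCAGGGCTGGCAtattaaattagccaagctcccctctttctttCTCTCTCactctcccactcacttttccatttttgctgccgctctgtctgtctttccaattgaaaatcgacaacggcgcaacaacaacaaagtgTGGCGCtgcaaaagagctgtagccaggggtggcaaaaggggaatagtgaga

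Summits of tagged az2 lay in or within 10 kb of 9 of the 10 genes, mostly in introns and flanking DNA rather than at the genes' own promoters. A summit lay in the gene or within 10 kb of it for dpp, sog, tkv, sax, put, Mad, Med, shn and brk, but not for scw. Over all protein-coding genes the share with such a summit was 67.8%. Those genes had a median span of 2166 bp and the members 10131 bp, so the stretch searched was longer for the members. Only tkv had a summit within 500 bp of a TSS, 1 of 10 members, where 22.6% of all protein-coding genes and 30.3% of those spanning 10 kb or more had one. An intron of the gene held a summit in 6 of the 8 members that have introns (scw and brk have none), against 9.63% of all genes with an intron. Intronic summits go with gene length, so the members were also read by span. All 5 members of 10 kb or more (dpp, sog, tkv, Mad and shn) had an intronic summit, against 42.1% of genes that long. Of the 3 shorter members with introns only put had one, against 3.10% of shorter genes with introns. No summit lay in an exon of a member. In all there were 24 intronic summits, 1 at a promoter and 18 in flanking DNA, and none was assigned to more than 1 member. Of the 18 flank summits, 7 lay within 500 bp of a TSS of another gene, among them the only summits of sax and Med. The flanks of 10 kb also cover more DNA than the promoter windows of 500 bp. The same split over all 5786 IDR summits is not given here, so it is not shown to be particular to the members.

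**Figure D1:**
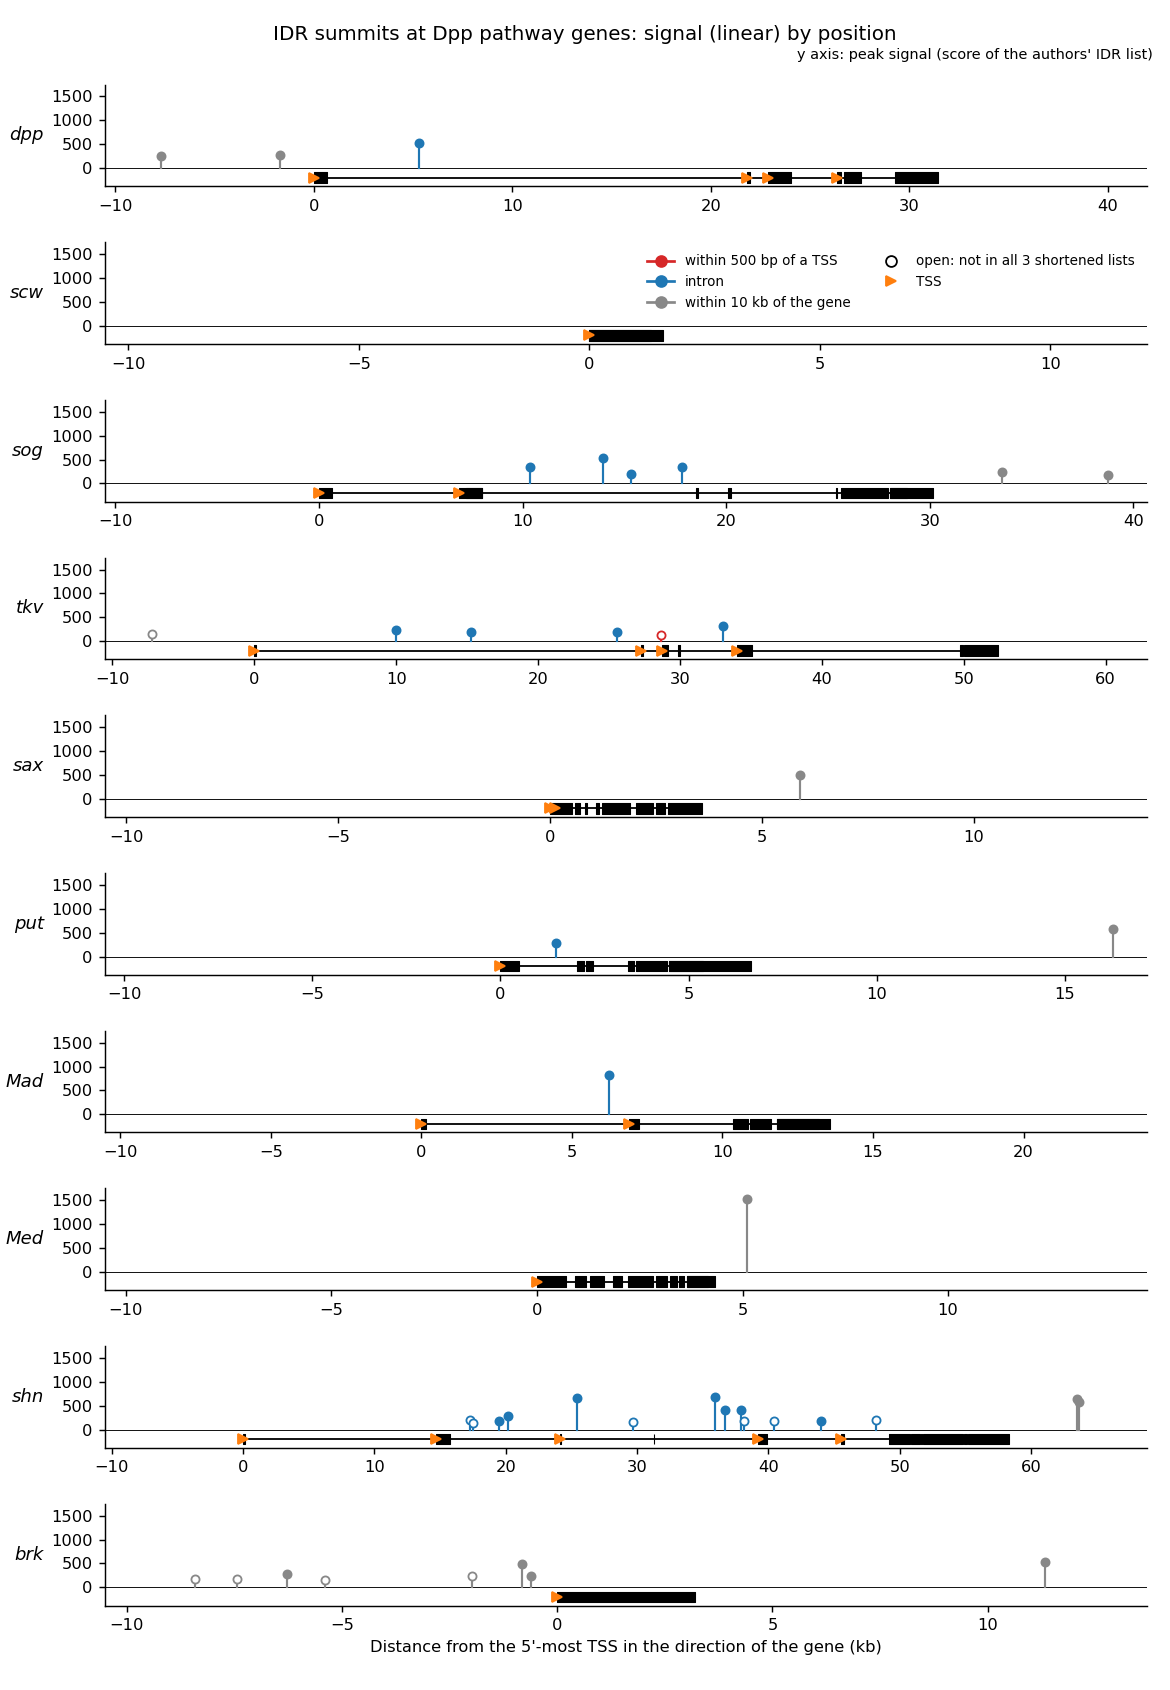
Each row is a gene drawn from its 5′-most TSS in the direction of transcription (kb), with exons as black boxes and TSSs as triangles. Stems show the IDR summits with their signal on a linear axis, and open circles mark summits outside a peak of at least 1 of the 3 shortened replicate lists. The introns of shn hold 13 summits, brk has 7 upstream, and scw has none.

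Each of the 43 summits lay in a peak of all 3 relaxed replicate lists. With the shortened lists 31 of 43 (72.1%) were covered in all 3 replicates, 8 in 2 and 4 in 1, close to the 72.6% of all IDR summits. The median signal of the member summits was 258 and their median rank 2527. A count of 25 ranked above the median of all IDR peaks, and 5 were in the top 10%. Taken as a percentile of each replicate's own list and averaged over the 3 replicates, their positions ran from 0.245% to 25.7% with a median of 9.52%. The same value over all IDR summits was not computed. The replicate lists are much longer than the IDR list, so low percentiles are not particular to the members.

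**Figure D2:**
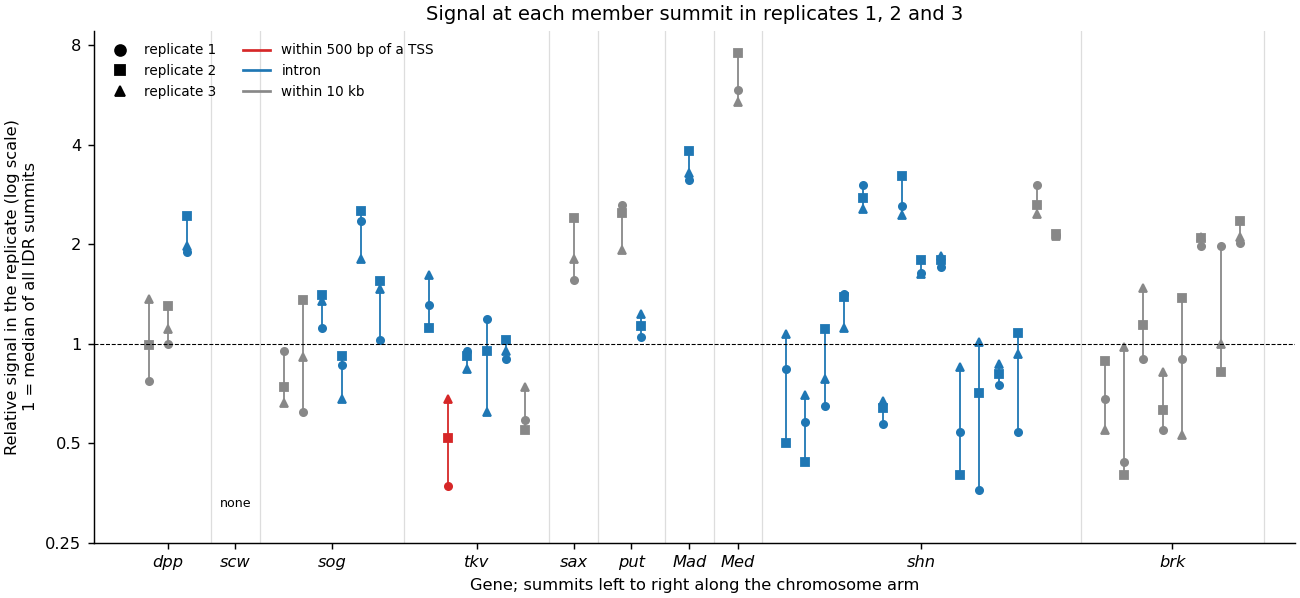
The relative signal of replicates 1, 2 and 3 (circle, square, triangle) is plotted on a log axis for each of the 43 member summits, by gene, where 1 is the median of all IDR summits in that replicate. The peak beside Med is at 5.39 or more in all 3 replicates, the Mad intron at 3.14 or more, and the tkv promoter peak is below 1 in all 3.

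Of the ligands, dpp had 3 summits and scw had none. The dpp gene (FBgn0000490) spans 31452 bp at 2L:2428372-2459823 on the plus strand. Its highest peak, 2L:2433524-2433738, had a signal of 522 and rank 775, with its summit 5278 bp downstream of the 5′-most TSS. The summit lies in an intron of 26006 bp that belongs to 1 of the 4 dpp transcripts. Its relative signal was 1.89, 2.44 and 1.98 in replicates 1, 2 and 3, a mean of 2.10 ± 0.29 (SD, n = 3), so every replicate had it well above its own median. A summit 1720 bp upstream of the gene had a signal of 278 and rank 2296, with no other TSS within 500 bp and a relative signal of 1.14 ± 0.15 (SD, n = 3). The third, 7698 bp upstream, had a signal of 258 and rank 2527 but lay 156 bp from the TSS of CG9886. All 3 were covered in all 3 shortened lists.

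The scw gene (FBgn0005590), a short gene of 1590 bp at 2L:19699379-19700968 that is nested in Lar, encodes the ligand that acts with Dpp in the early embryo. Its nearest IDR summit lay 57729 bp away. The relaxed list of pooled reads, with 27145 peaks, also had none within 10 kb of scw.

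The inhibitor gene sog (FBgn0003463), whose product binds Dpp and Scw outside the cell, had 6 summits, 4 of them in a single intron. The gene spans 30152 bp at X:15603283-15633434 on the minus strand, and the intron of 10523 bp is shared by all 3 sog transcripts. The highest of the 4, X:15619381-15619620, had a signal of 544 and rank 698, and relative signals of 2.36, 2.53 and 1.81 in replicates 1, 2 and 3. The others in the intron had signals of 338 (rank 1712), 336 (rank 1727) and 189 (rank 3823). The 4 summits lay 3453 to 10927 bp downstream of the inner sog TSS. In relative signal the highest averaged 2.23 ± 0.38, and the other 3 averaged 1.35 ± 0.28, 1.29 ± 0.15 and 0.82 ± 0.12 (SD, n = 3 each), so the lowest of the 4 stood below the median IDR summit in every replicate. The remaining 2 summits lay beyond the 3′ end, at 3397 and 8587 bp, with signals of 245 and 180 and no TSS of another gene within 500 bp. All 6 were covered in all 3 shortened lists.

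The promoter and intronic summits of the receptor genes had signals of 134 to 328, and 3 of these 6 ranked above the median of all IDR peaks. The gene of the type I receptor tkv (FBgn0003716; 52385 bp at 2L:5219000-5271384, minus strand) had the only promoter summit among the members. It lay 93 bp upstream of an inner tkv TSS, in the peak 2L:5242498-5242927, with a signal of 134 and rank 5755, close to the end of the IDR list. Its relative signal was 0.37, 0.52 and 0.68 in replicates 1, 2 and 3, and only replicate 3 had it in its shortened list. No member kept a promoter summit, a count of 0, when peaks had to be covered in 2 shortened lists with replicate 1, 2 or 3 left out, and a window of 1000 bp in place of 500 bp gave 3 members, with Mad and brk added. The same summit lay 14 bp from the start of CR14033, a pseudogene annotated inside tkv on the opposite strand, so the 2 starts cannot be told apart.

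Introns of tkv held 4 higher summits. The highest, 1023 bp upstream of an inner TSS at 2L:5238170-5238599, had a signal of 328 and rank 1800, with relative signals of 1.31, 1.12 and 1.62 in replicates 1, 2 and 3. The others had signals of 239 (rank 2784), 200 (rank 3572) and 197 (rank 3625), and lay in the long intron behind the 5′-most TSS, of 29759 bp. Their mean relative signals were 0.96 ± 0.07, 0.90 ± 0.06 and 0.92 ± 0.29 (SD, n = 3 each). These 3 stood near the median IDR summit. All 4 intronic summits were covered in the 3 shortened lists. A flank summit of signal 155 and rank 4813 lay 7231 bp upstream of tkv and 67 bp from the nearest TSS of Nin and Bub1, the gene of a spindle checkpoint kinase.

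The other type I receptor gene, sax (FBgn0003317; 3584 bp at 2R:7806484-7810067), had no summit at its promoter or in an intron. A single flank summit lay 2324 bp beyond its 3′ end with a signal of 499 and rank 853, and relative signals of 1.56, 2.40 and 1.80 in replicates 1, 2 and 3. It stood 113 bp from the nearest TSS of its neighbours puml and TTLL12. The type II receptor gene put (FBgn0003169; 6674 bp at 3R:14619030-14625703, minus strand) had 1 intronic summit, 1474 bp downstream of its TSS. Its signal was 279 and its rank 2283, and the relative signal was 1.05, 1.13 and 1.23, above the median IDR summit in all 3 replicates. The higher peak near put, with a signal of 571 and rank 636, lay 9601 bp from the gene and 213 bp from the TSS of CG14853.

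The highest peaks assigned to the group lay in the Smad gene Mad and beside the Smad gene Med, the latter at the TSS of a neighbouring gene. Mad (FBgn0011648; 13588 bp at 2L:3146056-3159643, minus strand), the receptor-regulated Smad of the pathway, had 1 summit, in the peak 2L:3153243-3153567 with a signal of 831 and rank 296. It lay 650 bp upstream of the inner Mad TSS, in an intron of 10214 bp that belongs to 1 of the 2 Mad transcripts, and so just outside the promoter window. The relative signal was 3.14, 3.82 and 3.29 in replicates 1, 2 and 3, where the peak ranked 341, 261 and 320. Its mean percentile in the replicate lists was 1.12% ± 0.0513 (SD, n = 3).

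The co-Smad gene Med (FBgn0288966; 4330 bp at 3R:31611046-31615375, plus strand) had no summit in the gene. The peak 3R:31616010-31616376, the highest of all 43, had a signal of 1522 and rank 62, and its relative signal was 5.85, 7.58 and 5.39 in replicates 1, 2 and 3. It lay 787 bp beyond the 3′ end of Med and 2 bp from the TSS of Mnat9, which shares a divergent promoter with CG1792. The Med TSS was 5116 bp away.

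Of the 43 member summits 23 were assigned to the nuclear regulator genes, 15 to shn and 8 to brk. The 13 of these that lay inside the gene were all in shn, and the rest were in flanking DNA. The shn gene (FBgn0003396; 58309 bp at 2R:11159086-11217394, plus strand) encodes the large zinc finger protein that joins the Smads at the brk silencer. Its introns held 13 summits, more than in all but 3 protein-coding genes, kirre with 23, CG1677 with 18 and sbb with 14. Per length this was 2.23 intronic summits for every 10 kb of gene, and 34 of 1977 genes of 10 kb or more (1.72%) had a higher density. The same density was 1.33 for sog, 0.764 for tkv, 0.736 for Mad and 0.318 for dpp, exceeded by 7.23%, 17.5%, 18.6% and 34.2% of the long genes. The median long gene had 0 and the upper quartile was 0.546, so all these members but dpp stood above the upper quartile.

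**Figure D3:**
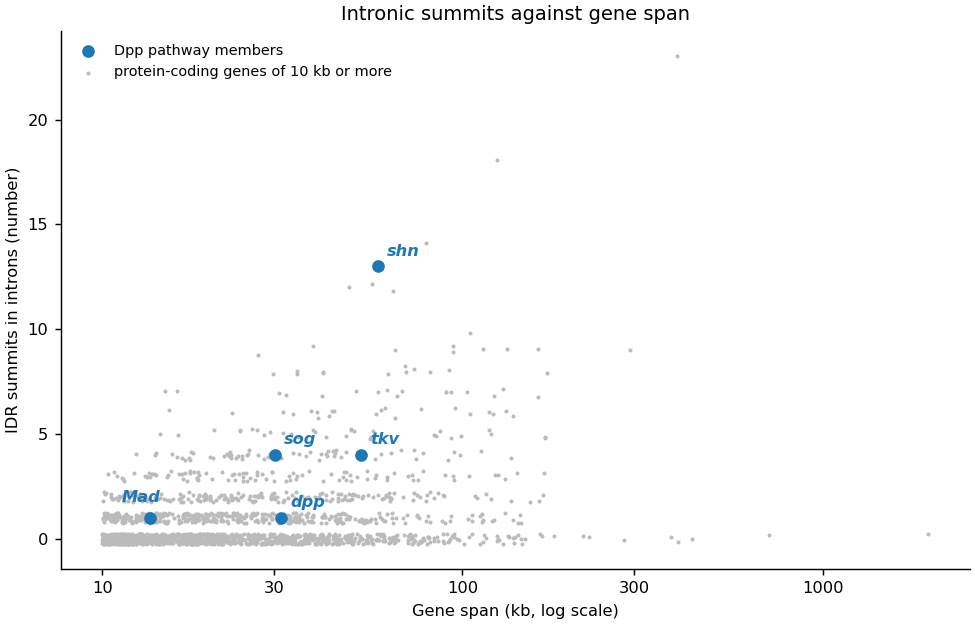
Each grey point is a protein-coding gene of 10 kb or more, with its span on a log axis (kb) and its number of intronic IDR summits, moved up or down by a small random amount to show overlapping points. The 5 members of that length are blue and not moved, and shn with 13 is above all but 3 genes.

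The 13 intronic summits of shn lay in a stretch of 30891 bp that began 17293 bp downstream of the 5′-most TSS, and neighbouring summits were 225 to 6255 bp apart. The highest, 2R:11194897-11195102, had a signal of 690 and rank 437, and relative signals of 2.62, 3.23 and 2.46 in replicates 1, 2 and 3. Next was 2R:11184403-11184705, with a signal of 662 and rank 478, and relative signals of 3.02, 2.77 and 2.55. These 2 summits stood 10470 bp apart and were above the median IDR summit by a similar amount in every replicate. Then followed 419 (rank 1192), 412 (rank 1213) and 295 (rank 2115), with mean relative signals of 1.78 ± 0.07, 1.68 ± 0.09 and 1.31 ± 0.16 (SD, n = 3 each). All 5 of these were covered in all 3 shortened lists.

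The other 8 intronic summits of shn were lower, with signals of 196, 192, 186, 184, 183, 176, 152 and 137 and ranks from 3651 to 5580. Of these only the summits of signal 186 and 184 were covered in all 3 shortened lists; 4 were covered in 2 and 2 in 1. Their mean relative signals ran from 0.57 to 0.85. So 8 of the 13 ranked below the median IDR peak. Keeping only peaks that 2 shortened lists cover, with replicate 1, 2 or 3 left out, the count for shn was 10, 8 and 7, and 5, 6 and 7 genes then had more. In 2 places adjoining peaks overlapped, with summits 247 and 225 bp apart, and counting each such pair as 1 gave 11. The 2 flank summits of shn, with signals of 650 and 584, also overlapped and lay 309 and 106 bp from the TSS of CG7737, beyond the 3′ end of shn.

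The brk gene (FBgn0024250; 3194 bp at X:7307939-7311132, plus strand) encodes the repressor that Dpp signalling silences, and has no intron. All 8 of its summits were in flanking DNA and none lay within 500 bp of any TSS. The gene is nested in the long gene CG1677 and in lncRNA:CR44357, both on the opposite strand, so the flank of brk is also intron of these 2 genes. The nearest summits lay 619 and 821 bp upstream of the brk TSS, in overlapping peaks. The one at 821 bp, X:7306943-7307225, had a signal of 489 and rank 889, and relative signals of 1.97, 2.09 and 2.11 in replicates 1, 2 and 3, a mean of 2.06 ± 0.07 (SD, n = 3). Its neighbour at 619 bp had a signal of 229 and rank 2968, and in replicate 1 a single peak covered both.

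Farther upstream of brk, at 1987 to 8421 bp, lay 5 summits with signals of 159 to 289 and ranks of 2171 to 4673. The summit at 6278 bp had the signal of 289 and was the only 1 of the 5 covered in all 3 shortened lists. The peak of highest signal in the brk flank, 538 with rank 718, lay 8128 bp beyond the 3′ end in an intron of Atg5, an autophagy gene, as well as of CG1677. Its relative signal was 2.02, 2.35 and 2.10 in replicates 1, 2 and 3. Which of the overlapping genes these peaks bear on was not tested.

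Ordered by the highest summit inside the gene, the relative signal was 3.42 ± 0.36 at Mad, 2.78 ± 0.23 at shn, 2.23 ± 0.38 at sog, 2.10 ± 0.29 at dpp, 1.35 ± 0.26 at tkv and 1.14 ± 0.09 at put (SD, n = 3 each). The shn value is that of the summit with signal 662. Its replicate range overlapped neither that of Mad nor that of sog, where its lowest value was 2.55 and the highest of sog 2.53, and the ranges of dpp and tkv did not overlap. Those of sog and dpp overlapped, and so did those of tkv and put, although dpp was below sog, and put below tkv, in 2 of 3 replicates. The other high shn summit, of signal 690, ranged from 2.46 to 3.23 and overlapped the ranges of both Mad and sog. The highest was taken from 13 intronic summits in shn, 4 each in sog and tkv, and 1 each in Mad, dpp and put. Such an order favours genes with more summits.

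By role, the promoter and intronic summits of dpp and sog (5 summits) had a median signal of 338, those of tkv and put (6 summits) 219, that of Mad 831 and those of shn (13 summits) 192. In relative signal the median was 1.12, 1.55 and 1.46 in replicates 1, 2 and 3 for dpp and sog, and 1.00, 0.99 and 0.90 for the receptors. For shn it was 0.75, 1.08 and 1.01, and for Mad the value of its only summit. Over these summits the median of dpp and sog was above that of the receptors in each replicate, while receptors and shn changed order between replicates. With flank summits included the medians of dpp and sog were 1.00, 1.36 and 1.35 and those of the receptors 1.05, 1.03 and 0.95, so replicate 1 had the opposite order. Single summits overlapped between the roles, and the lowest sog intron summit was below the highest tkv one in every replicate. Coverage in all 3 shortened lists was 5 of 5 for dpp and sog, 5 of 6 for the receptors, 1 of 1 for Mad and 7 of 13 for shn. The summits of a gene share its surroundings, and these values come from 2 genes (dpp and sog), 2 genes (tkv and put), Mad alone and shn alone, so these are descriptions of the genes named.

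Weak promoter peaks were looked for in the relaxed list of pooled reads. Of the 10 members 5 had a summit of that list no farther than 500 bp from a TSS (tkv, sax, put, Mad and shn), next to 49.4% of all protein-coding genes. It held none at the promoters of dpp, scw, sog, Med and brk. Besides the tkv IDR peak there were 12 such weaker promoter summits, of which 4 were at tkv, 4 at shn, 2 at Mad, 1 at sax and 1 at put. Their signals ran from 37.9 at Mad to 126 at shn, below the lowest IDR signal of 133. Of the 107 relaxed summits in and around the members that were not IDR peaks, 22 lay in a peak of all 3 replicates. The same share over all genes was not computed, so this count cannot be called high or low.

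By the placement rule, intronic and flank summits lie more than 500 bp from every TSS of their own gene. Within that rule, the 24 intronic summits lay 650 to 11975 bp from the nearest such TSS, with a median of 2732 bp. Of these, 11 were upstream and 13 downstream of it. The same distances over all intronic IDR summits are not given here. Of the 18 flank summits, 7 lay within 500 bp of a TSS of another gene, at CG9886, Nin and Bub1, puml and TTLL12, CG14853, Mnat9 and CG1792, and CG7737 (2 summits). These 7 had a median signal of 571, against 238 for the 11 flank summits with no TSS within 500 bp, which were those of dpp (1), sog (2) and brk (8).

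Short motifs were searched in the 300 bp windows on both strands, and 13 of 43 member windows (30.2%) held at least 1 of 9, against 35.1% of all IDR windows. The Brinker word TGGCGC, the core of the site that the brk product binds, was in 9 of 43 member windows (20.9%), against 11.3% of all 5786 IDR windows and 12.2% of windows 2 kb away from the summits. The 9 were at sog (3), brk (2), shn (2), tkv and Mad, so 2 of the 8 brk windows held the word that its own product binds. The tkv window was the flank one, 67 bp from the nearest TSS of Nin and Bub1. Of the 2 shn windows, 1 was a flank window 106 bp from the TSS of CG7737. Both brk windows and 1 of the 3 sog windows were also in flanks. Where the word runs into its own reverse complement, as in the downstream sog and the far upstream brk window printed above, each strand counts as a match. In windows of 200 bp the share was 14% in members and 7.24% in all, and in 100 bp 9.3% and 4.18%. The word in the Mad window began 105 bp before the summit on the plus strand, and the nearest in the downstream sog window 5 bp before it.

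The remaining motifs were in few member windows. The GAGA factor word GAGAGAG was in 4 (9.3%, against 6.36% of all IDR windows), the CTCF core word AGNNGGCGC, which shares letters with the Brinker word, in 2 (4.65% against 4.29%), and motif 7 in 2 (4.65% against 8.38%). The Mad and Medea word GCCGNCG was in 1 (2.33% against 6.15%), at the flank summit of sax. The DNA replication element TATCGATA was in 1 (2.33% against 4.67%), the tkv promoter window, and the word GGTCACAC of the promoter factor M1BP in 1 (2.33% against 3.25%), again at sax. The early activator Zelda's word CAGGTAG was in 0 windows, against 1.38%, and the longer silencer motif at which Mad, Med and Shn join in 0, against 0.19%. The highest windows of dpp, sog and shn, the upstream window of brk at 821 bp and the window beside Med held none of the 9. GC content had a median of 36.7% in member windows and 36% in all IDR windows. A word in a window is a match of letters, and binding by the factor named was not measured.

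Other genes of the pathway, 40 in all, were read by the same rules. A promoter summit was present in 7 of 40 (17.5%), an intronic one in 12 (30%) and any summit in the gene or within 10 kb in 34 (85%). In EGF receptor signalling the counts were 5, 10 and 16 of 20 genes, and in Wingless signalling 6, 8 and 18 of 20. The Dpp members (1, 6 and 9 of 10) had the lowest share with a promoter summit and the highest with an intronic one of these 4 lists, a difference that was not tested and in which 1 member makes 10 percentage points. Of the genes of 10 kb or more, all 5 Dpp members had an intronic summit, 10 of 19 in the wider pathway, 8 of 10 in EGF receptor signalling and 6 of 9 in Wingless signalling.

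**Figure D4:**
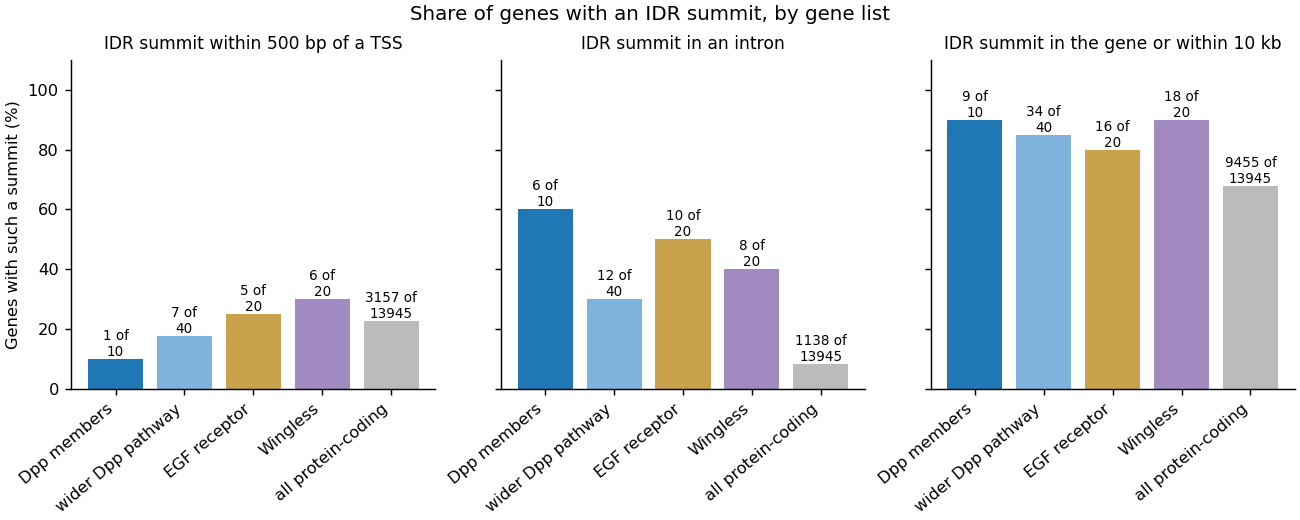
Bars give the percentage of genes with an IDR summit within 500 bp of a TSS, in an intron, or in the gene or within 10 kb, for the 10 Dpp members, 40 other pathway genes, 20 EGF receptor genes, 20 Wingless genes and all 13945 protein-coding genes, with counts above the bars. The intronic panel counts all genes, with or without introns, and the members have 6 of 10 there, against 1138 of 13945 genes.

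Among the other extracellular regulators, a promoter summit was found at magu (signal 982, rank 198), which encodes the Dpp feedback regulator Pentagone, at dlp (408), a glypican, and at cv (180), a relative of Tsg. Intronic summits were highest at dlp (682), at cv-2 (511), which binds BMPs at the cell surface, and at dally (354), the second glypican. None of the 5 other ligands of the family had a promoter or intronic summit. All 5 span less than 10 kb, where 3.10% of genes with an intron had an intronic summit. Of all protein-coding genes 22.6% had a promoter summit. The further type II receptor gene wit had 2 intronic summits, the higher with a signal of 485 and relative signal 2.18 ± 0.62 (SD, n = 3).

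The inhibitory Smad gene Dad, which Dpp itself induces, had 2 intronic summits, the higher with a signal of 863 and rank 263. Its relative signal of 3.50 ± 0.34 (SD, n = 3) was next to the 3.42 ± 0.36 of Mad. Among the nuclear cofactors the corepressor gene gro had a promoter summit of 1051 and nej, the gene of the coactivator CBP, one of 249. In this role Snoo, of the Ski and Sno family, had 7 intronic summits up to 541, and CtBP 1 of 136.

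Among the target genes ush, which encodes the GATA cofactor U-shaped of the dorsal ectoderm, stood apart with 12 intronic summits. The highest had a signal of 3702, rank 2 of all 5786, and a relative signal of 14.87 ± 2.12 (SD, n = 3). The promoter summits were at peb (266) and bi (169), and Doc1 had an intronic summit of 179. No promoter or intronic summit was found at the other 10 of 14 targets, next to 10104 of all 13945 protein-coding genes without one.

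In the comparison lists the promoter summits of EGF receptor signalling were at spi (984), aos (673), Krn (487), Ras85D (288) and aop (247), and the highest intronic ones of genes without a promoter summit at Raf (1518), S (970) and drk (660). Those of Wingless signalling were at the promoters of sgg (1062), nkd (731), Apc2 (350), hyx (229), Apc (179) and lgs (139), and in introns of fz (1087), arr (418) and fz2 (227). The highest own summit of a Dpp member, 831 at Mad, was below the highest of each of these lists.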

How the data were processed

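Per the labels' protocols, chromatin of 3 replicates was sheared by sonication and precipitated with an antibody against GFP. The deposited peak lists give a signal value for every peak in column 7; how the authors' caller computed it is not given in the sources used here, and the scale was taken as linear. The deposited column 10 holds the summit offset, an other kind of value. The peak caller and the IDR threshold are not given in the sources used here. The dm6 lists were used (IDR, pooled relaxed and 3 replicate relaxed lists); those of dm3 were not used here. Genes came from the Ensembl annotation BDGP6.54 on 6 chromosome arms, and sequences from the NCBI Release 6 genome, whose chromosome lengths hold all peaks. A summit was placed at a promoter (within 500 bp of any TSS of the gene), else in an exon, an intron, or the 10 kb flanks. It counted as covered in a replicate when it lay in a peak of that list, which was used whole or shortened to its 5786 highest peaks. Python 3.11.15, pandas 2.3.3, numpy 2.4.6 and matplotlib 3.10.9 were used, and placement and motif search were tested on simulated data. The members, gene lists and motifs were chosen with earlier results of these data known. By rule all members and their promoter, intronic and 3 highest summits were named, and, in the other lists, genes with a promoter summit and at most 3 others per role by intronic signal. The alternatives covered the TSS window, the flank, the signal threshold, the summit rule, the motif window, replicate support and each replicate left out. No column of the lists was left unmapped. With 1 group there was no contrast and no paired analysis.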

Additional observations from a re-analysis of the deposited data

How the results depend on the processing

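The count of members with an intronic summit (6) and with any summit (9) stayed within 1.5 times in all the alternatives run, from 5 to 6 and at 9. The member lost was Mad, whose summit counted as a promoter one with a window of 1000 bp or any base of the peak. Of the members of 10 kb or more, only dpp, sog, tkv and shn then had an intronic summit. The share of all long genes under these settings is not given here. The single promoter summit, at tkv, did not: a window of 1000 bp gave 3 members (tkv, Mad and brk, against 25.9% of all genes), any base of the peak 2, and the 5′-most TSS alone, the IDR peaks above the median signal or those covered in all 3 shortened lists gave 0. Leaving out replicate 1, 2 or 3, by keeping peaks covered in both others' shortened lists, gave 0 each time. The summits assigned (43) ran from 32 to 36 without a replicate and fell to 25 above the median signal, and were 32 and 51 with flanks of 5 and 20 kb. The intronic summits of shn (13) were 5 above the median signal, 7 when covered in all 3 shortened lists, and 7 to 10 without a replicate, alternatives chosen after seeing the data. The genes with more of them than shn (3) were then 9, 6, and 5 to 7, and 5 with overlapping peaks counted as 1. The median rank (2527) was 2822 in the list of replicate 1 and 2784 over promoter and intronic summits. Windows with any motif (13) were 6 within 50 bp of the summit. The cause of these changes was not tested. Coverage in all 3 relaxed lists was 43 without any 1 replicate, 31 in the shortened lists, and 39 with a replicate summit within 100 bp. No paired analysis was possible because there was 1 group. Peak lists without reads limit what low ranks can show: a gene without an IDR summit may still be bound below the threshold, and a GFP antibody background was not measured here.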
